A study of Homo sapiens with 6 samples.

Results

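The cholesterol genes examined here are 31 genes that make cholesterol or govern its sensing, uptake, efflux and storage, chosen by symbol from the 32299 genes of the deposited table. Of these, 18 encode enzymes of synthesis and 13 encode sensors, transporters and related proteins. They were followed in 6 messenger RNA libraries of the human glioma cell line U87, an established line in long use. By the labels, 3 libraries came from cells transfected with a control vector and 3 from cells that overexpressed tau, a microtubule-binding protein. Below, the first are the control-labelled and the others the tau-labelled libraries, and a gene that rose or fell was higher or lower in the tau-labelled group. The labels used here name no tau isoform, clone or time after transfection, and separate cultures behind the libraries are stated nowhere in them, so p-values measure the spread between these libraries, which may be technical.

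Cholesterol is built from acetyl-CoA through mevalonate, isoprenoid units, squalene and lanosterol. When sterols are scarce in the endoplasmic reticulum, SCAP escorts the transcription factor SREBP-2, the product of SREBF2, to the Golgi, where it is cut and freed to switch on the genes of synthesis and uptake. When sterols are plentiful, INSIG1 holds SCAP back, and oxysterols activate the LXR receptors, encoded by NR1H3 and NR1H2, which raise efflux. In the brain, cholesterol is made locally, largely by glia, and LXR agonists and inhibitors of this pathway are studied in glioblastoma cells.

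The libraries held 58229083 to 65512119 counts each, and 17927 genes had enough counts to be tested. Counts of MAPT, the gene of tau, were 279, 391 and 345 for control-labelled libraries 1, 2 and 3 but 145, 150 and 176 for the tau-labelled ones, a 2.30-fold fall (log2 fold change -1.20, SE 0.21, adjusted p = 0.00151 by edgeR's quasi-likelihood test). This goes against the labels, so the libraries are named by label only, and every direction below rests on those labels. Of the markers of a mesenchymal glioma line, VIM stood at 1307 to 1834 FPKM (fragments scaled by transcript length and library depth) and CD44 at 81.7 to 99.5. VIM rose, NES and CHI3L1 fell, and CD44 and FN1 did not pass (FN1 did under the offsets for base composition described below, with a log2 fold change of -0.56 and adjusted p = 0.00615). By edgeR's fit, NES fell 4.44-fold (log2 fold change -2.15, SE 0.12, adjusted p = 3.49e-06) and CHI3L1 6.59-fold (log2 fold change -2.72, SE 0.12, adjusted p = 8.08e-07). Mean FPKM of CHI3L1, which is not scaled as in the fit, was 277 in the control-labelled libraries and 45.6 in the tau-labelled ones. The astroglial markers GFAP, S100B, SOX2 and OLIG2 summed to only 0.346 to 0.742 FPKM in the control-labelled libraries and 0.387 to 0.528 in the tau-labelled ones. Markers of other cells, of which 5 of 6 had a row, summed to 142 to 160.4 FPKM in the control-labelled libraries and 73.3 to 88.0 in the tau-labelled ones, nearly all of it CD68, a lysosomal protein. PECAM1 fell from 1.36 to 1.91 FPKM to 0.151 to 0.215, EPCAM was at or under 0.266 FPKM, RBFOX3 at or under 0.0174, and MBP rose from at most 0.104 to at least 0.202. The part of these markers in the results was not tested.

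The libraries of the control-labelled group also differed among themselves in step with base composition. Between control-labelled libraries 3 and 1, the log2 ratio of FPKM ran from 1.14 for STARD4, whose longest transcript has a GC content of 34.2%, to -0.59 for LRP1, at 60.1%. Over the 30 cholesterol genes with counts, Spearman's rho of this ratio with GC content was -0.86, and over 17147 genes it was -0.52. The log2 fold change between the groups had a rho of -0.34 with GC content over the 30 genes and of -0.31 over 17547 genes. Points within each set share the same libraries, so these values are descriptions. The edgeR test was therefore also run with offsets for GC content and length, computed per library from a smooth fit on both. For each of the 31 genes whose result changed its call, turned or moved by more than 1.5 times with these offsets, the value under them is given as well.

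**Figure D1:**
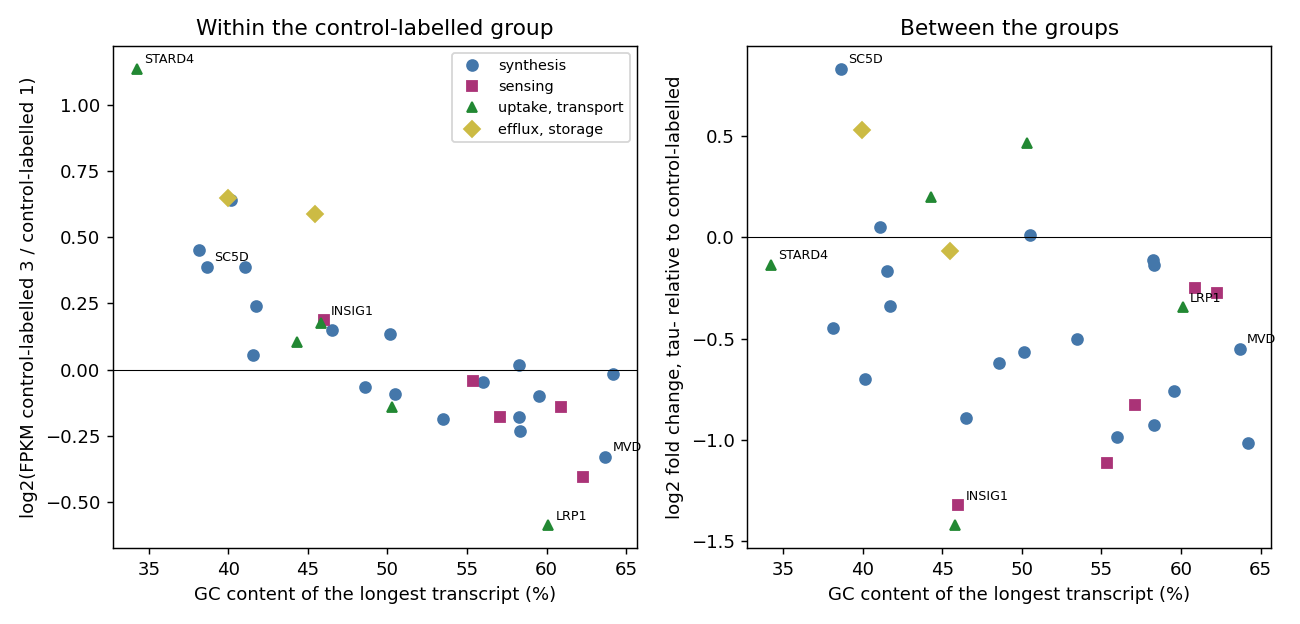
Each point is 1 of the 30 cholesterol genes with counts, placed by the GC content of its longest transcript (x axis, %) against the log2 FPKM ratio of control-labelled library 3 to library 1 (left) and the fitted log2 fold change between the groups (right). Within the control-labelled group the points fall from STARD4 at 1.14 to LRP1 at -0.59 (rho -0.86), and the slope between the groups is looser (rho -0.34).

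Promoter sequences were taken from RefSeq (GRCh38.p14), which matched 27 of the 31 genes with 36 windows. ACAT2, FDFT1, SQLE and ABCG1 had no entry. The 250 bases before the start site are shown for SREBF2 (chr22:41832855-41833104, plus strand), the one gene of the set whose window holds the 9-letter sterol element core, for INSIG1 (chr7:155297628-155297877, plus strand) and FDPS (chr1:155308616-155308865, plus strand), which fell clearly, and for the first SC5D window (chr11:121292521-121292770, plus strand), which rose. Capitals mark the sterol element core TCACNCCAC and the NF-Y box CCAAT, either of them on either strand, so that CCAAT on the other strand reads ATTGG.
SREBF2: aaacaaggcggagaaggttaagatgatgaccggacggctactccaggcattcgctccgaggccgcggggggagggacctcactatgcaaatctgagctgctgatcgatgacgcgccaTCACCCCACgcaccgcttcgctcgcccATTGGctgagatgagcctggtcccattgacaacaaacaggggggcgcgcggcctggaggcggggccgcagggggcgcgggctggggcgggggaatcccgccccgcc
INSIG1: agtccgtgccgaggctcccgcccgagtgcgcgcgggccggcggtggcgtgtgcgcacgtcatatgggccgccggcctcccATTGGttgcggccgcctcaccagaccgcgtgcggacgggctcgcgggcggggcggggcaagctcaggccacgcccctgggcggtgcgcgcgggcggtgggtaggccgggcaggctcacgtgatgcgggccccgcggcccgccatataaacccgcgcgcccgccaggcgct
FDPS: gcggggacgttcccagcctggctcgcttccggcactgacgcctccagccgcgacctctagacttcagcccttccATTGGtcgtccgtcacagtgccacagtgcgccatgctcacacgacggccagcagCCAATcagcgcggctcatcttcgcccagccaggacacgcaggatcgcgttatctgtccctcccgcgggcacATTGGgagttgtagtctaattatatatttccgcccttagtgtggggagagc
SC5D: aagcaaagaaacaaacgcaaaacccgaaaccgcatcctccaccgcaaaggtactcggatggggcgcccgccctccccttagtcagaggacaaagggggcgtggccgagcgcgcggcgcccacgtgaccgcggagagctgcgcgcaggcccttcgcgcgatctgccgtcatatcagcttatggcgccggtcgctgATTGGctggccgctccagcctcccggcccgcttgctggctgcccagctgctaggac

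Exact matches were sought on both strands over windows of 250 bases before and 50 after each start. The sterol element core TCACNCCAC lay in 1 of the 36 windows, that of SREBF2, at 133 bases before the start, and in 1.13% of all 35116 windows. The NF-Y box CCAAT lay in 22 of the 36 windows and in 34.6% of all windows. It was found for 11 of the 12 genes that fell and have a window (PMVK lacked it), for 2 of 3 that rose and for 7 of 12 that did not pass the test described below. The most CCAAT boxes, 5 each over all windows of a gene, were those of MVK, IDI1 and NSDHL, which did not pass. The Sp1 box GGGCGG lay in 32 of the 36 windows and in 45.0% of all. It was found for 12 of the 12 genes that fell, 3 of 3 that rose and 11 of 12 that did not pass. The LXR direct repeat (AGGTCA repeated after any 4 letters) lay in none of the 36 windows and in 0.0199% of all. A match is only a description of these letters, and genes with several windows had more chances of one. The shares of all are per window, those by call are per gene, and whether a box goes with a call was not tested.

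Most enzymes of cholesterol synthesis, 15 of 18, had a negative fitted log2 fold change, that is, lower in the tau-labelled libraries. Of all 17927 genes tested, 8921 did. Of the 18 enzymes, 11 fell, 1 rose and 6 did not pass the test (edgeR's quasi-likelihood test over all 17927 genes, adjusted p below 0.05), where 21.4% of all genes tested fell and 21.3% rose, 42.7% in either direction. Among the 11107 tested genes with a mean of at least 1 FPKM, 24.1% fell and 27.3% rose, 51.4% in either direction. The median log2 fold change of the enzymes was -0.53, beside 0.00439 over all genes. With the GC and length offsets these medians were -0.38 and 0.074. Under the offsets 11 enzymes fell as well, but MVD and EBP no longer passed and CYP51A1 and HSD17B7 did. Limma on log2(FPKM + 0.5) was fitted to every gene with a mean of at least 1 FPKM, and the median of those genes was 0.15. With limma, 2330 of them fell and 4013 rose. By edgeR's test, 3830 fell and 3822 rose of the 17927 genes, and 2682 and 3028 of the 11107. Under limma 11 enzymes fell and 1 rose as before. The groups did not overlap in FPKM for 10 of the 18 enzymes, beside 56.1% of all genes tested and 63.7% of those with a mean of at least 1 FPKM. Summed over the 18 enzymes, FPKM was 750, 694 and 749.6 in control-labelled libraries 1, 2 and 3 and 537.5, 551 and 597 in the tau-labelled ones, so the tau-labelled mean was 76.8% of the control-labelled mean. In a culture, fewer cells that make a transcript and less of it per cell cannot be told apart.

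**Figure D2:**
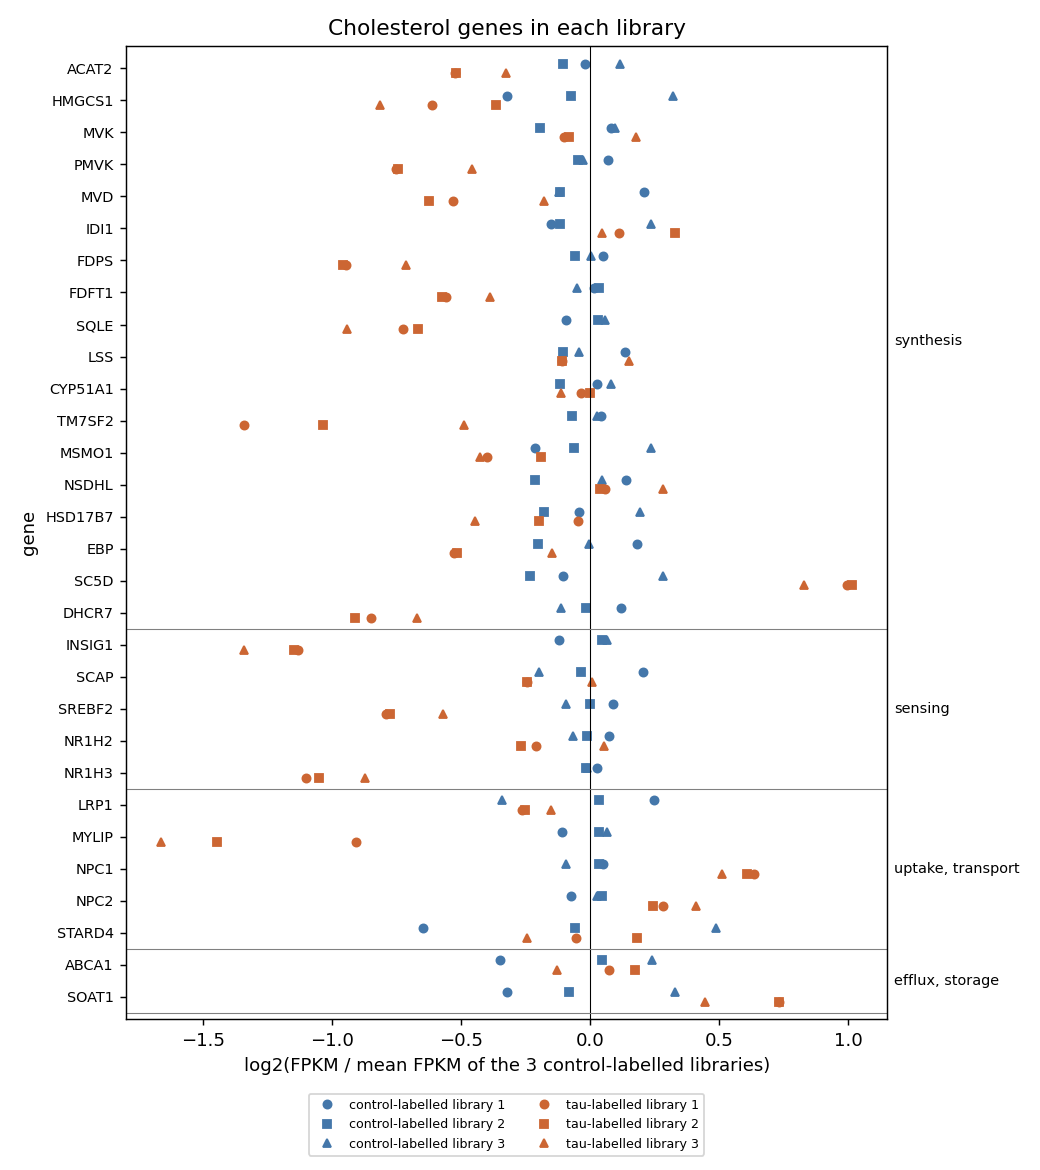
Each row is 1 cholesterol gene and each point 1 library, placed by log2 of its FPKM over the mean of the 3 control-labelled libraries (x axis), with genes in the order of the pathway and grouped by role. The tau-labelled points of FDPS, SQLE, DHCR7, INSIG1, SREBF2, NR1H3 and MYLIP lie wholly to the left of the control-labelled ones, those of SC5D, NPC1, NPC2 and SOAT1 wholly to the right, and those of MVK, LSS, CYP51A1, STARD4 and ABCA1 overlap.

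Of the 8 enzymes that lead to squalene, 6 fell and none rose by edgeR's test, beside 21.4% and 21.3% of all genes tested. Their median log2 fold change was -0.59, and -0.34 with the GC and length offsets. Values by library are given in FPKM for libraries 1, 2 and 3 in that order, and folds are those of the fit, whose TMM scaling sets the tau-labelled libraries lower than FPKM does. ACAT2, the cytosolic thiolase that joins acetyl-CoA units, had 27.2, 25.7 and 29.9 FPKM in the control-labelled libraries and 19.2, 19.3 and 22.02 in the tau-labelled ones. Each tau-labelled library lay under each control-labelled one, and the fitted fall was 1.48-fold (log2 fold change -0.57, SE 0.12, adjusted p = 0.0037). ACAT2 shares 615 bases with TCP1 on the other strand, which had 548% of its counts and rose by 0.38 on the log2 scale, and reads of the overlap may have been counted for either.

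HMGCS1, which makes HMG-CoA, had 23.4, 27.7 and 36.4 FPKM in the control-labelled libraries and 19.1, 22.6 and 16.6 in the tau-labelled ones. The groups came close, with 22.6 under 23.4, and the spread within the control-labelled group was wide. The fitted fall was 1.62-fold (log2 fold change -0.70, SE 0.16, adjusted p = 0.00556, and -0.95 with the GC and length offsets). MVK, mevalonate kinase, had a mean of 10.6 ± 1.16 FPKM in the control-labelled libraries and 10.6 ± 1.17 in the tau-labelled ones (SD, n = 3 each), and did not pass (log2 fold change -0.11, SE 0.13, adjusted p = 0.546, and 0.20 with the GC and length offsets). It overlaps MMAB on the other strand by 326 bases. PMVK, phosphomevalonate kinase, stood at 19.5, 18.02 and 18.2 FPKM in the control-labelled libraries and 11.04, 11.1 and 13.5 in the tau-labelled ones, with a clear gap between the groups. It fell 1.69-fold (log2 fold change -0.76, SE 0.15, adjusted p = 0.00288). With offsets for GC content and length its log2 fold change was -0.29 (adjusted p = 0.0385).

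MVD, which decarboxylates mevalonate pyrophosphate, had 26.3, 21.0 and 20.9 FPKM in the control-labelled libraries and 15.8, 14.8 and 20.1 in the tau-labelled ones. Tau-labelled library 3 lay just under the lowest control-labelled value. MVD fell 1.46-fold (log2 fold change -0.55, SE 0.16, adjusted p = 0.022), but the call ended with no filter for low counts (adjusted p = 0.0609), without control-labelled library 1 (0.0704), without tau-labelled library 1 (0.0892) or 2 (0.0938) and under the GC and length offsets (log2 fold change -0.11, adjusted p = 0.339). IDI1, which isomerises the isoprenoid unit, had 20.2, 20.7 and 26.4 FPKM in the control-labelled libraries and 24.3, 28.2 and 23.2 in the tau-labelled ones. The groups overlapped and it did not pass (log2 fold change 0.05, SE 0.12, adjusted p = 0.765, and -0.16 with the offsets).

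FDPS (ENSG00000160752) lies at chr1:155308748-155320666 on the plus strand (GRCh38, the gene span as deposited, which can begin before or after the RefSeq start). FDPS, farnesyl diphosphate synthase, stood at 82.7, 76.7 and 79.9 FPKM in the control-labelled libraries and 41.4, 41.1 and 48.7 in the tau-labelled ones. The groups were far apart and the libraries of each close together. The fall was 1.98-fold (log2 fold change -0.98, SE 0.12, adjusted p = 0.000192, and -0.56 with the GC and length offsets). FDFT1, squalene synthase, was the most abundant of the 18 enzymes per length in the control-labelled libraries, at 109.8, 111 and 105 FPKM, and had 73.7, 73.0 and 83.1 in the tau-labelled ones. All tau-labelled values lay under all control-labelled ones, and the fall was 1.54-fold (log2 fold change -0.62, SE 0.10, adjusted p = 0.00126).

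Of the 10 enzymes from squalene onward, 5 fell, 1 rose and 4 did not pass by edgeR's test. Of all genes tested, 21.4% fell and 21.3% rose. The median log2 fold change of these 10 enzymes was -0.39, and -0.44 with the GC and length offsets. SQLE, squalene epoxidase, a rate-controlling oxygenase, had 50.3, 54.7 and 55.8 FPKM in the control-labelled libraries and 32.4, 33.8 and 27.9 in the tau-labelled ones. The groups did not overlap, and offsets for GC content and length hardly moved its log2 fold change, from -0.89 (SE 0.10, adjusted p = 0.000152) to -0.86. The next 2 enzymes did not pass. LSS, lanosterol synthase, had means of 70.9 ± 6.28 and 70.0 ± 7.48 FPKM (SD, n = 3 each) in the control-labelled and tau-labelled libraries, and its log2 fold change of -0.13 (SE 0.12, adjusted p = 0.418) turned to 0.15 with those offsets. CYP51A1, lanosterol demethylase, had means of 48.3 ± 3.42 and 46.7 ± 1.87 FPKM (SD, n = 3 each), a log2 fold change of -0.17 (SE 0.10, adjusted p = 0.201) and, with the offsets, one of -0.36 that passed (adjusted p = 0.0148). Its span overlaps that of AKAP9 on the other strand, which had 9.68% of its counts.

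TM7SF2, one of the sterol reductases of the pathway, was scarce, at 3.48, 3.22 and 3.44 FPKM in the control-labelled libraries and 1.33, 1.65 and 2.41 in the tau-labelled ones. The tau-labelled libraries were the lower ones and spread widely. TM7SF2 fell 2.02-fold (log2 fold change -1.01, SE 0.22, adjusted p = 0.00498), or by 0.58 on the log2 scale with offsets for GC content and length. MSMO1, the sterol methyl oxidase, had means of 50.5 ± 8.19 and 40.1 ± 3.69 FPKM (SD, n = 3 each) with overlapping groups. It fell 1.36-fold (log2 fold change -0.45, SE 0.12, adjusted p = 0.0148), or by 0.68 on the log2 scale with the offsets, but did not pass without tau-labelled library 1 (adjusted p = 0.0706), with library size alone as scaling (0.0671) or with limma on log2(FPKM + 0.1) (0.0517). NSDHL, a sterol dehydrogenase, did not pass, with means of 42.6 ± 5.25 and 46.6 ± 4.52 FPKM (SD, n = 3 each) in groups that overlapped (log2 fold change 0.01, SE 0.14, adjusted p = 0.946, and 0.28 with the offsets). HSD17B7, a ketosteroid reductase, did not pass either, at 2.55 ± 0.339 and 2.19 ± 0.300 FPKM (SD, n = 3 each) in groups that overlapped (log2 fold change -0.34, SE 0.16, adjusted p = 0.113), though it did with the offsets (log2 fold change -0.51, adjusted p = 0.00846).

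EBP, the sterol isomerase, had 96.2, 73.6 and 84.4 FPKM in the control-labelled libraries and 58.8, 59.3 and 76.5 in the tau-labelled ones. Tau-labelled library 3 exceeded control-labelled library 2, so the groups overlapped. EBP fell 1.42-fold (log2 fold change -0.50, SE 0.16, adjusted p = 0.0262), and this call ended with no filter for low counts (adjusted p = 0.0701), without control-labelled library 1 (0.0824), without tau-labelled library 1 (0.110) or 2 (0.106) and under the GC and length offsets (log2 fold change -0.12, adjusted p = 0.426). SC5D, lathosterol oxidase, was the enzyme that rose. SC5D (ENSG00000109929) lies at chr11:121292681-121313410 on the plus strand. It stood at 1.44, 1.32 and 1.89 FPKM in the control-labelled libraries and 3.09, 3.13 and 2.76 in the tau-labelled ones. Its lowest tau-labelled value was well above its highest control-labelled value, at a level far under that of most other enzymes. The rise was 1.78-fold (log2 fold change 0.83, SE 0.14, adjusted p = 0.00145). DHCR7, which carries out the last reduction on one branch to cholesterol, had 58.1, 53.0 and 49.5 FPKM in the control-labelled libraries and 29.7, 28.5 and 33.7 in the tau-labelled ones. These groups were well separated, and the fall was 1.898-fold (log2 fold change -0.92, SE 0.12, adjusted p = 0.000366, and -0.51 with the offsets).

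**Figure D3:**
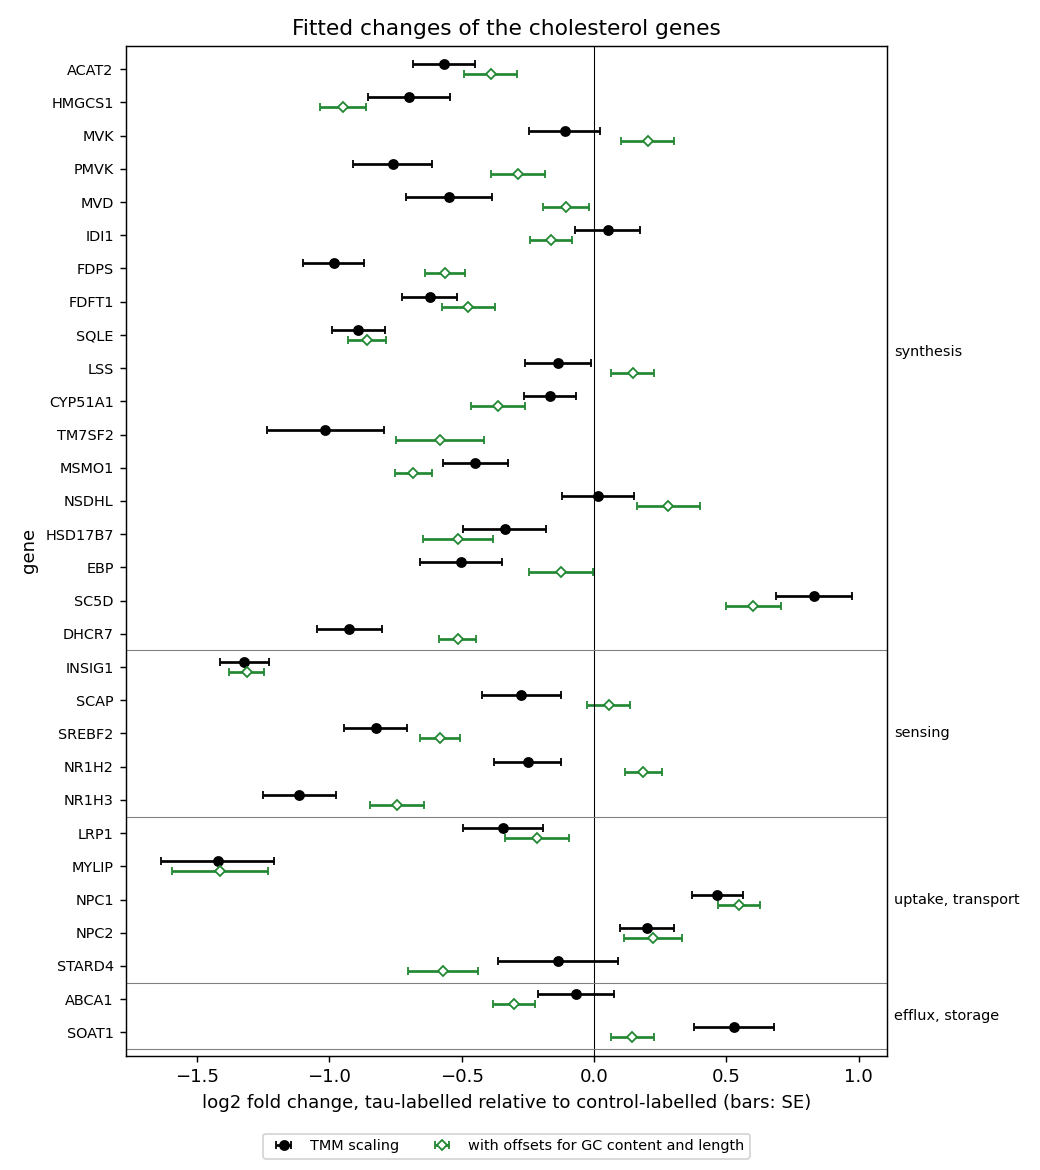
Filled circles are the fitted log2 fold changes (x axis, tau-labelled relative to control-labelled, bars 1 SE) of the 30 cholesterol genes with TMM scaling, and open diamonds the same with offsets for GC content and length. SQLE, INSIG1 and MYLIP hardly move between the settings, MVD, EBP and SOAT1 shrink to -0.11, -0.12 and 0.15, and STARD4 moves from -0.14 to -0.57.

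Among genes of sensing, uptake and efflux, calls went both ways. Of the 13 genes, 12 had enough counts to be tested, of which 4 fell, 2 rose and 6 did not pass by edgeR's test, beside the 21.4% and 21.3% of all genes that fell and rose. The falls were 33.3% of the 12 and the rises 16.7%, and whether these shares differ from those of all genes was not tested. Of the 5 sensing genes, 3 fell and 0 rose. Of the 5 uptake and transport genes, 1 fell and 1 rose, and of the 2 tested efflux and storage genes, 0 fell and 1 rose. The median log2 fold change of the 12 was -0.26, and 9 of them had negative values. Those that fell were INSIG1, SREBF2, NR1H3 and MYLIP, and those that rose were NPC1 and SOAT1. With offsets for GC content and length 6 fell and 1 rose, beside 21.1% and 27.2% of all genes under the same offsets. The rises also numbered 1 without control-labelled library 2 or tau-labelled library 1 or 2. Summed FPKM of the 13 genes was 552, 563 and 539 in the control-labelled libraries and 432, 428 and 436 in the tau-labelled ones. The tau-labelled mean of this sum was 78.4% of the control-labelled mean, beside 76.8% for the enzymes. INSIG1 and LRP1 made up much of the sum. The mean of the sum went from 551 FPKM in the control-labelled libraries to 432 in the tau-labelled ones. The mean of INSIG1 went from 215 to 93.3, a fall as large as that of the sum. Falls and rises of the other genes about cancelled in FPKM. The 78.4% therefore does not describe a fall shared by these genes. The difference between the enzymes and these genes was not tested.

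INSIG1 (ENSG00000186480) lies at chr7:155297776-155310235 on the plus strand, and SREBF2 (ENSG00000198911) lies at chr22:41833079-41907307 on the plus strand (GRCh38). INSIG1, the sterol-sensing anchor of SCAP in the endoplasmic reticulum, was the most abundant of the 31 genes per length in the control-labelled libraries and fell furthest of the sensors. It had 198, 222 and 225 FPKM in the control-labelled libraries and 98.1, 97.1 and 84.9 in the tau-labelled ones. The groups were far apart, and the libraries of each lay close together. The fall was 2.50-fold (log2 fold change -1.32, SE 0.09, adjusted p = 1.12e-05), and over 16 other settings its log2 fold change ran from -1.36 to -1.20. SREBF2, which encodes SREBP-2, stood at 55.7, 52.3 and 49.1 FPKM in the control-labelled libraries and 30.3, 30.6 and 35.3 in the tau-labelled ones. The groups were separated by a wide gap. SREBF2, whose promoter with the sterol element core is shown above, fell 1.77-fold (log2 fold change -0.82, SE 0.12, adjusted p = 0.000524). SCAP, the escort of SREBP-2, had means of 15.2 ± 2.17 and 13.7 ± 1.42 FPKM (SD, n = 3 each) and did not pass (log2 fold change -0.27, SE 0.15, adjusted p = 0.167, and 0.06 with the offsets).

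The LXR genes differed in level and in call. NR1H3, which encodes LXR alpha, had 4.39, 4.26 and 4.26 FPKM in the control-labelled libraries and 2.01, 2.08 and 2.35 in the tau-labelled ones. The control-labelled libraries were nearly identical, and all tau-labelled ones lay far under them. NR1H3 fell 2.16-fold (log2 fold change -1.11, SE 0.14, adjusted p = 0.000252). It shares 607 bases with ACP2 on the other strand, which had 246% of its counts and a log2 fold change of -0.04, or of 0.39 with the GC and length offsets (adjusted p = 0.0041). NR1H2, which encodes LXR beta, was more abundant, at 31.4 ± 1.56 and 28.6 ± 3.51 FPKM (SD, n = 3 each), and did not pass (log2 fold change -0.25, SE 0.13, adjusted p = 0.142). It did pass without tau-labelled library 3 (log2 fold change -0.38, adjusted p = 0.0221), and its value under the GC and length offsets was 0.19 (adjusted p = 0.0506). Whether the changes of NR1H3 and NR1H2 differ was not tested.

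**Figure D4:**
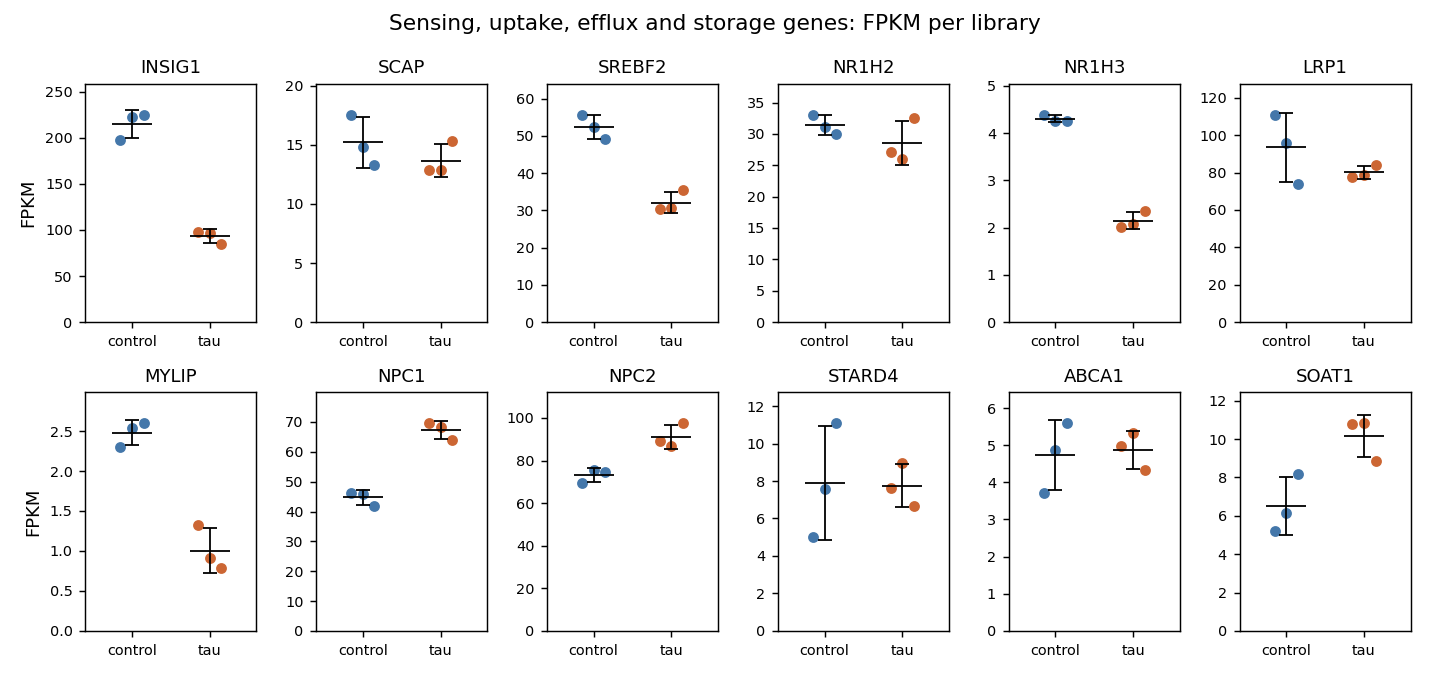
FPKM (y axes, each from 0) of the 12 detected genes of sensing, uptake, efflux and storage, with 1 point per library, the mean as a line and bars of 1 SD (n = 3). INSIG1, SREBF2, NR1H3 and MYLIP are lower in all tau-labelled libraries, NPC1, NPC2 and SOAT1 are higher in all, and STARD4 ranges from 5.04 to 11.1 FPKM within the control-labelled group.

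Among uptake and transport genes, MYLIP fell and NPC1 rose. MYLIP (ENSG00000007944) lies at chr6:16129086-16148248 on the plus strand, and NPC1 (ENSG00000141458) lies at chr18:23506184-23576947 on the minus strand. MYLIP, an LXR-induced ubiquitin ligase that marks lipoprotein receptors for degradation, had 2.30, 2.54 and 2.59 FPKM in the control-labelled libraries and 1.32, 0.910 and 0.783 in the tau-labelled ones. All tau-labelled values were lower, with a wide spread among them. MYLIP fell 2.68-fold (log2 fold change -1.42, SE 0.21, adjusted p = 0.000703), the largest fitted change of the 31 genes. NPC1, the membrane protein that passes cholesterol out of late endosomes and lysosomes, stood at 46.4, 45.8 and 42.0 FPKM in the control-labelled libraries and 69.5, 68.3 and 63.8 in the tau-labelled ones. The tau-labelled libraries were all well above, and the rise was 1.38-fold (log2 fold change 0.47, SE 0.10, adjusted p = 0.00369). NPC1 overlaps RMC1 on the other strand, which had 7.65% of its counts.

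NPC2, the soluble lysosomal partner that hands cholesterol to NPC1, had 69.5, 75.6 and 74.7 FPKM in the control-labelled libraries and 89.2, 86.8 and 97.4 in the tau-labelled ones. The groups did not overlap in FPKM, yet the TMM-scaled test did not pass (log2 fold change 0.20, SE 0.10, adjusted p = 0.139). With library size alone as scaling it did (log2 fold change 0.31, adjusted p = 0.0202), a scaling that set the median of all genes at 0.12, and likewise with limma on log2(FPKM + 0.5) (0.31, adjusted p = 0.0119). LRP1, an endocytic receptor of lipoproteins, had 111, 95.6 and 73.8 FPKM in the control-labelled libraries and 77.8, 78.5 and 84.1 in the tau-labelled ones. Control-labelled library 3 was the lowest of all 6. LRP1 did not pass (log2 fold change -0.34, SE 0.15, adjusted p = 0.0959, and -0.21 with the GC and length offsets) but did without that library (log2 fold change -0.52, adjusted p = 0.00844). STARD4, a soluble sterol carrier, varied most within a group, at 5.04, 7.57 and 11.1 FPKM in the control-labelled libraries and 7.60, 8.96 and 6.67 in the tau-labelled ones. Its log2 fold change of -0.14 (SE 0.23, adjusted p = 0.666) was -0.57 with offsets for GC content and length (adjusted p = 0.0051), and 0.15 without control-labelled library 3.

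Of the genes of efflux and storage, SOAT1 rose. SOAT1, the acyltransferase that esterifies cholesterol for storage in lipid droplets, had 5.21, 6.15 and 8.17 FPKM in the control-labelled libraries and 10.8, 10.8 and 8.87 in the tau-labelled ones. The lowest tau-labelled value was only slightly above the highest control-labelled one. The rise was 1.44-fold (log2 fold change 0.53, SE 0.15, adjusted p = 0.0184), and its call ended without control-labelled library 2 (adjusted p = 0.0758), without tau-labelled library 1 (0.0664) or 2 (0.0635) and under the GC and length offsets (log2 fold change 0.15, adjusted p = 0.17). ABCA1, the LXR-induced exporter of cholesterol to apolipoproteins, had 3.71, 4.88 and 5.58 FPKM in the control-labelled libraries and 4.97, 5.34 and 4.32 in the tau-labelled ones. The groups overlapped and it did not pass (log2 fold change -0.07, SE 0.14, adjusted p = 0.735), though it did with the offsets (log2 fold change -0.30, adjusted p = 0.00991). ABCG1, a sterol exporter to lipoprotein particles, had 0 counts in all 6 libraries, which allows up to 0.00811 CPM over the 6 together and covers counting error only.

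For 17 of the 30 genes tested the groups did not overlap in FPKM, beside 56.1% of all genes tested. For genes without overlap, an exact two-sided permutation test on log2(FPKM + 0.5) can only give p = 0.1. That is the smallest p that 3 libraries against 3 allow, so for the 17 it adds nothing to the lack of overlap. Within groups, the SD of FPKM was 1.72% to 38.4% of the mean in the control-labelled libraries, from NR1H3 to STARD4, and 4.01% to 30.7% in the tau-labelled ones, from CYP51A1 to TM7SF2. Tau-labelled library 3 held the highest tau-labelled value for 17 of the 30 genes and the lowest for 13, so it was never the middle one.

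Beyond these 31 genes, a list of 40 other genes of sterol handling had 39 with enough counts, of which 15 fell, 4 rose and 20 did not pass by edgeR's test (median log2 fold change -0.24), beside 21.4% and 21.3% of all genes tested that fell and rose. For this list, limma on FPKM, fitted to genes with a mean of at least 1, gave 9 that fell. INSIG2, the second sterol-sensing anchor of SCAP, had 5.05, 5.33 and 8.00 FPKM in the control-labelled libraries and 2.86, 3.01 and 2.70 in the tau-labelled ones, and SREBF1, whose products switch on fatty acid synthesis, had 41.8, 38.4 and 28.9 and 9.32, 8.43 and 10.7. Both fell, with log2 fold changes of -1.21 and -2.06 (SE 0.17 each, adjusted p = 0.000508 and 3.11e-05), and both were named after their values were seen. CYP46A1, a cholesterol hydroxylase known from neurons, was scarce, at 0.133, 0.121 and 0.155 FPKM in the control-labelled libraries and 0.0224, 0.0371 and 0.0467 in the tau-labelled ones, and fell with a log2 fold change of -2.06 (SE 0.40, adjusted p = 0.00259). TMEM97, a sterol-binding membrane protein that associates with NPC1, had 7.35, 7.89 and 10.9 FPKM in the control-labelled libraries and 21.1, 21.4 and 17.7 in the tau-labelled ones. It rose 2.12-fold (log2 fold change 1.08, SE 0.15, adjusted p = 0.000432). ERLIN1, a cholesterol-binding protein of the endoplasmic reticulum, had 18.6, 21.3 and 22.3 FPKM in the control-labelled libraries and 33.9, 36.1 and 28.01 in the tau-labelled ones. The groups did not overlap, and it rose 1.45-fold (log2 fold change 0.54, SE 0.12, adjusted p = 0.00454).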

How the data were processed

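Poly(A) RNA of U87 cells was sequenced as paired-end reads from dUTP-marked libraries, per the labels' protocols. The strand setting used in counting is not stated. The authors' deposited table gives whole-number counts and FPKM per gene. The submitters' processing notes name cutadapt 1.9, HISAT2 2.2.1, StringTie 2.1.6, DESeq2, edgeR and GRCh38, without roles. The annotation release is not stated either. Values of 4 (6724) outnumber values of 1 (5596), 2 (4435) and 3 (3295), and why was not tested, so limits from counting error may not hold for low counts. Of the ratios of count to FPKM among 10677 genes with over 200 counts, 99.9% lay within 1% of what 1 length for each gene and 1 depth for each library give. FPKM shows levels and counts were tested.

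Columns were matched to samples by title. The count test was that of edgeR 4.0.16 (R 4.3.3): filterByExpr (minimum count 10, minimum total 15), TMM, and the quasi-likelihood test with group as the sole term, two-sided, with Benjamini-Hochberg adjustment over all genes tested. Genes with an adjusted p below 0.05 rose or fell. The SE is the size of the log2 fold change over the square root of F. The script was tested on simulated data. Alternatives were DESeq2 1.42.0, limma 3.58.1 on log2 FPKM of genes with a mean of at least 1, other scalings and filters, a replicate block, each library left out, and offsets from a smooth fit (mgcv 1.9.3) on GC content and length of the longest GENCODE transcript, known for 97.9% of genes tested.

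The named genes are the 31 cholesterol genes, MAPT, and, of the other 40, the 3 largest changes that passed in each direction. Some genes this rule names are not reported here. The members and lists were chosen with earlier results of these data known.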

Additional observations from a re-analysis of the deposited data

How the results depend on the processing

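Over 16 other settings, the enzymes that fell numbered 8 to 11 and those that rose 1. Besides the values given above, rises among the genes of sensing, uptake and efflux numbered 1 with the replicate block and the offsets for GC content and length together. With limma on log2(FPKM + 0.5) and on log2(FPKM + 0.1), 9 of the other sterol genes fell under either. Of all genes fitted, those with a mean of at least 1 FPKM, 2330 and 2317 fell. Leaving out 1 library gave 1 to 2 rises among the genes of sensing, uptake and efflux.

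Genes that did not pass could turn in sign, and the cause was not tested. MVK was at 2.77e-05 with library size alone, 0.0041 and 0.0043 with limma (pseudocounts 0.5 and 0.1), 0.20 with the offsets and 0.21 with the offsets and block. IDI1 was at -0.16 with the offsets, with or without the block. LSS was at 0.15 and NR1H2 at 0.19 in both, and SCAP at 0.055 and 0.058. STARD4 was at 0.029 and 0.034 with limma. ABCA1 was at 0.041 with library size alone and at 0.053 and 0.059 with limma. Leaving out 1 library gave -0.021 to 0.14 for IDI1, -0.093 to 0.12 for NSDHL, -0.36 to 0.15 for STARD4 and -0.20 to 0.030 for ABCA1. NSDHL was at -0.0084 with genes of mean FPKM at least 1.

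Deviations of same-numbered libraries correlated at -0.04, -0.01 and -0.09, beside -0.076 to 0.107 for libraries of unlike number. These values show no pairing by number, but with 3 libraries per group they cannot exclude that libraries were prepared in pairs. A replicate block alone changed no call of the 30 genes, and 3181 genes rose and 3139 fell of all. PMVK did not pass with the block and the offsets together (adjusted p = 0.0777). DESeq2 changed none of the 30 calls. Depth limits low genes such as CYP46A1 and ABCG1.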
